A study of Mus musculus with 30 samples.

Results

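The genes described here are the globins and 2 further erythroid genes, chosen by their symbols in the deposited tables. They comprise 3 embryonic globins (*Hba-x*, *Hbb-y* and *Hbb-bh1*), 4 adult globins (*Hba-a1*, *Hba-a2*, *Hbb-bs* and *Hbb-bt*), the anion exchanger gene *Slc4a1* and the transcription factor gene *Klf1*, which makes 9 of 50833 counted genes. The libraries hold polyA RNA of forelimb buds from wild-type Swiss Albino mouse embryos. Pregnant females were given an intraperitoneal dose at E10.5, either of DMSO or of C59 (Wnt-C59), a small molecule that blocks porcupine and thereby the release of WNT ligands. Limb buds were collected 1, 6, 12, 18 or 24 h later, in 10 groups of 3 libraries, 30 in all. The control females received DMSO in PBS, whereas C59 was given in a vehicle that also held methylcellulose and Tween-20, so the groups differed in more than the inhibitor. The inhibitor was given to the mother and was not restricted to the limb bud. Each library came from 1 pair of forelimb buds. The study's methods state that the replicates of a condition and time drew on 3 or more litters. The labels do not say which embryos shared a litter, so p-values measure the spread between these libraries.

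Limb buds at this stage are made mostly of mesenchyme under an ectodermal sheet, and a vascular network carries embryonic blood through them. In the mouse, the first red cells arise in the yolk sac, enter the circulation while they still have a nucleus and express embryonic together with adult globins. Haemoglobin joins alpha-like chains, encoded on chromosome 11, with beta-like chains, encoded on chromosome 7. As primitive red cells mature, expression in the beta-like locus shifts from *Hbb-bh1* towards *Hbb-y*, while the definitive cells that the fetal liver releases later use the adult genes. *Klf1* encodes an erythroid transcription factor that binds CACCC boxes of globin and other red cell genes, and *Slc4a1* encodes band 3, the major anion exchanger of the red cell membrane.

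In GRCm38 (GENCODE M21), the 4 beta-like members lay within 40.7 kb at chr7:103812524-103853216 on the minus strand, and the 3 alpha-like members within 20.9 kb at chr11:32276400-32297298 on the plus strand. *Slc4a1* lies at chr11:102348824-102366203 on the minus strand and *Klf1* at chr8:84901928-84905291 on the plus strand. All 9 are annotated as protein-coding. Promoter sequence was found in RefSeq (GRCm38.p6) for 7 of the 9 members, with *Hbb-bh1* and *Slc4a1* unmatched. The 120 bases before the RefSeq start are shown for 6 members, whose promoters share some short elements. They are *Hba-x* at chr11:32276480-32276599 and *Hba-a1* at chr11:32283552-32283671, both on the plus strand, *Hbb-y* at chr7:103853208-103853327, *Hbb-bs* at chr7:103827929-103828048 and *Hbb-bt* at chr7:103813924-103814043 on the minus strand, and *Klf1* at chr8:84901862-84901981 on the plus strand. Each runs 5′ to 3′ on the strand of its gene, and capitals mark the motifs CACCC, the CCAAT box, the GATA letters GATAA or the TATA letters TATAA on either strand. No matches overlap, and in *Hbb-bt* a CCAAT box and its reverse lie side by side.
Hba-x: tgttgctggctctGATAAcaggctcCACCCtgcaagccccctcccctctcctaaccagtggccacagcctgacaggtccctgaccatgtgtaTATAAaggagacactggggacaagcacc
Hba-a1: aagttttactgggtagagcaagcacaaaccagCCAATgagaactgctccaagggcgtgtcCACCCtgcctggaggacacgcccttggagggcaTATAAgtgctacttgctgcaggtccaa
Hbb-y: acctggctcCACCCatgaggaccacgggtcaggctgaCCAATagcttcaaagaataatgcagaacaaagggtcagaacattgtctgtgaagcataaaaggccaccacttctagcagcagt
Hbb-bs: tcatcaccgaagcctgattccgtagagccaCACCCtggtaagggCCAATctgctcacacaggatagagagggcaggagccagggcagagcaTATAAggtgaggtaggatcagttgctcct
Hbb-bt: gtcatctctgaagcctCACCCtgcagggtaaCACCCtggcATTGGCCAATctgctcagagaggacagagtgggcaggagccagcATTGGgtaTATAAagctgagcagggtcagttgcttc
Klf1: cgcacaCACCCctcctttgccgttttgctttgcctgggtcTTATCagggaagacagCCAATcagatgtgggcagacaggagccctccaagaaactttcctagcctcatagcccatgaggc

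CACCC was present in 7 of the 7 windows, CCAAT in 6, TATAA in 5 and GATAA in 2. Over the same 120 bases of all 32851 RefSeq promoters, CACCC was found in 31.7%, CCAAT in 21.3%, TATAA in 11.8% and GATAA in 3449 promoters. These matches describe letters and not binding, and their part in the members' levels was not tested. The window of *Hba-a2*, not shown, was identical to that of *Hba-a1* over 117 of 117 aligned bases with a shift of 3 bases. For each of the 7 genes GENCODE places the first base upstream of the RefSeq start, so that the windows reach into its gene models.

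The adult genes are close copies of each other, which limits what their counts mean. The coding sequences of *Hba-a1* and *Hba-a2* differed at 1 of 426 bases and those of *Hbb-bs* and *Hbb-bt* at 1 of 441, whereas *Hbb-y* and *Hbb-bh1* differed at 104 of 441. Of all 150-base windows, the length of a read, 65.7% of those in the *Hba-a2* transcript and 48.4% of those in *Hba-a1* had an exact copy in the other, and the shares were 58.7% for *Hbb-bs* and 50.7% for *Hbb-bt*. No such window was shared between *Hbb-y* and *Hbb-bh1*. *Hba-a2* held 27 counts over all 30 libraries against 581371 for *Hba-a1*, had any count in 15 libraries and did not pass the filter on low counts. The other 8 members were tested in every comparison, and the division of counts between adult copies is uncertain.

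Library totals ran from 18188636 to 38974885 counts, and the globins took 0.307 to 0.954% of them. The forelimb gene *Tbx5* had a mean of 257 CPM (counts scaled to library size), against 14.3 for *Tbx4* and 1.753 for *Pitx1*, which mark the hindlimb. *Axin2*, a direct readout of canonical WNT signalling, differed between C59 and DMSO by −1.97 ± 0.06 (log2 fold change ± SE) at 6 h and −1.46 ± 0.06 at 12 h, with groups that did not overlap.

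Per transcript length, *Hbb-y* was the most abundant member in every group. In DMSO libraries at 1 h the mean FPKM (fragments per transcript length and library depth, computed by the authors) was 2114 ± 169 (SD, n = 3) for *Hbb-y*, 1386 ± 272 for *Hba-x*, 1280 ± 59 for *Hbb-bh1* and 628 ± 188 for *Hba-a1*. The lower ranks were held by *Hbb-bs* at 21.1 ± 5.70, *Slc4a1* at 18.7 ± 2.62, *Hbb-bt* at 4.60 ± 0.552 and *Klf1* at 3.23 ± 0.352. The ranges of *Hba-x* and *Hbb-bh1* overlapped, as did those of *Hbb-bs* and *Slc4a1*, and the other neighbours in this order were apart. At 24 h in DMSO *Hbb-y* was still first at 2544 ± 344 FPKM, *Hba-a1* at 1098 ± 177 and *Hba-x* at 1094 ± 103 overlapped in second place, and *Hbb-bh1* followed at 506 ± 78.0. Below them came *Hbb-bs* at 135 ± 18.1, *Hbb-bt* at 27.4 ± 11.2, which overlapped with *Slc4a1* at 17.6 ± 1.14, and *Klf1* at 2.12 ± 0.280.

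In C59 libraries at 1 h the order was the same, with a further overlap of *Hbb-bt* and *Klf1* and means of 2831 ± 505 FPKM for *Hbb-y* and 4.07 ± 1.07 for *Klf1* at its ends. At 24 h in C59 *Hbb-y* had 2690 ± 424 FPKM, *Hba-a1* 1078 ± 374 and *Hba-x* 911 ± 230.2, again with overlap of the latter pair. *Hbb-bs* had 195 ± 50.1, *Slc4a1* 16.9 ± 1.40 and *Hbb-bt* 11.6 ± 6.32, and these 3 did not overlap. The embryonic globins thus stayed above both adult beta-like genes in every group.

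**Figure D1:**
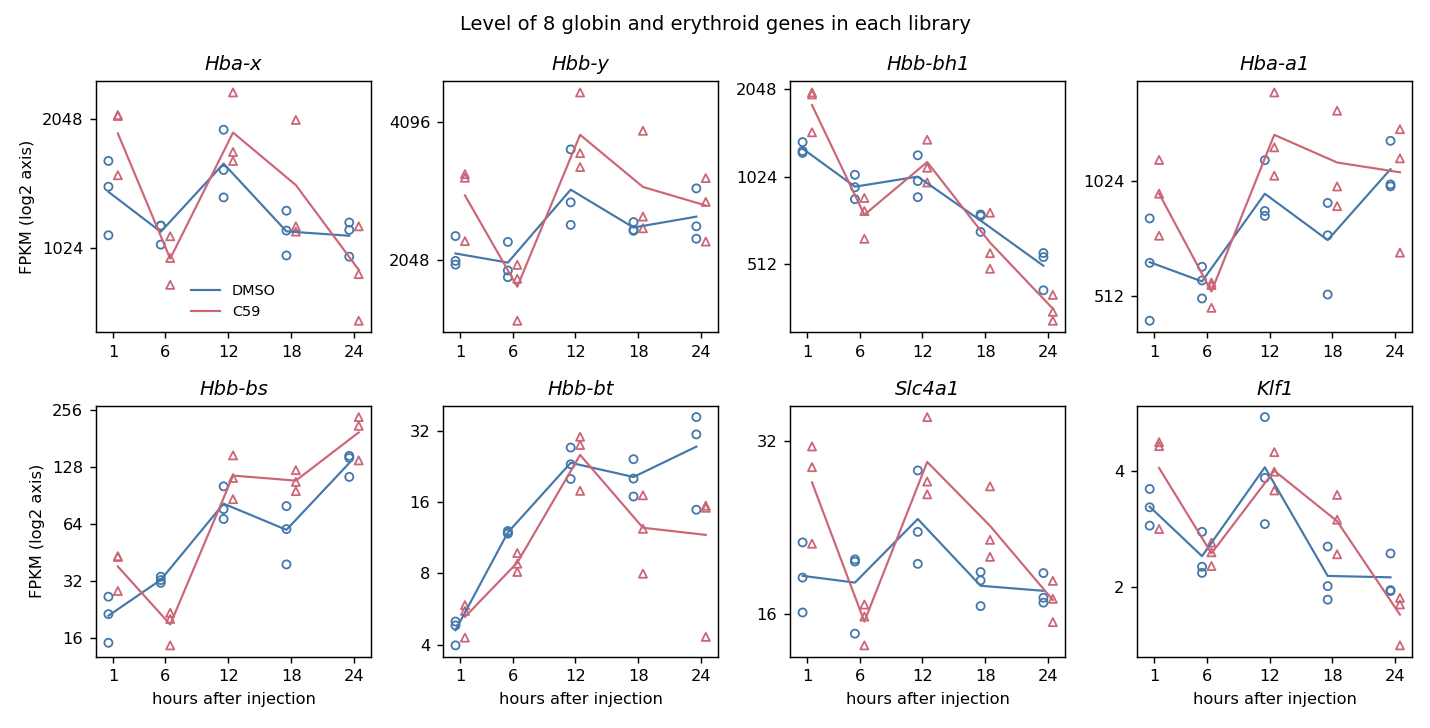
FPKM on a log axis against hours after injection for 8 genes, one panel each. Circles are the 3 DMSO libraries and triangles the 3 C59 libraries of each time, drawn slightly apart, and lines join the group means. *Hbb-bh1* declines from a mean ± SD of 1280 ± 59 to 506 ± 78.0 in DMSO while *Hbb-bs* climbs from 21.1 ± 5.70 to 135 ± 18.1, and some groups spread widely, such as *Hba-a1* in C59 at 24 h.

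The members varied together from library to library within a group. After each group's mean log2 CPM was removed, the 28 pairs among the 8 tested members had a Pearson r between 0.418 and 0.922 with a median of 0.71, over 30 libraries that share depth and normalisation. The closest pair was *Hbb-y* with *Hbb-bh1* (r = 0.922), and *Slc4a1* lay closer to *Hbb-y* (r = 0.902) than to *Hbb-bt* (r = 0.65). The lowest value was that of *Klf1* with *Hbb-bt* (r = 0.418), the members with the fewest counts among those tested. For the comparison with other genes no group mean was removed, so its r values include differences between times and treatments. Among 12533 other genes, those closest to the mean profile of the embryonic globins over the 30 libraries were *Car2*, a red cell carbonic anhydrase (r = 0.914), *Tal1*, a blood transcription factor (r = 0.907), *Sptb*, the erythroid beta-spectrin (r = 0.904), *Epb42*, a red cell membrane protein (r = 0.892), and the metallothionein *Mt1* (r = 0.882). For *Slc4a1* with *Klf1* they were *Tal1* (r = 0.927), *Slc30a10*, *Sptb*, *Epb42* and *Mt1* (r = 0.896). The adult globin profile was closest to *H2-T24* (r = 0.857), *Ucp2*, *Pheta2* and *Tent5c* (r = 0.848). In these bulk samples, fewer red cells and less RNA per cell cannot be told apart.

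To follow normal development, the DMSO libraries of 24 h were compared with those of 1 h. Over this day the adult globins rose and the embryonic *Hbb-bh1* fell. *Hbb-bs* had 15.2, 21.5 and 26.6 FPKM at 1 h and 114, 143 and 147 at 24 h, and its counts rose by a log2 fold change of 2.57 ± 0.15 (adjusted p = 2.13e-09, edgeR quasi-likelihood test with Benjamini-Hochberg adjustment over all tested genes, as for each adjusted p given without a tool). *Hbb-bt* had 3.97, 4.82 and 5.01 FPKM and then 14.8, 30.8 and 36.5 (2.43 ± 0.20, adjusted p = 1.38e-07). *Hbb-bh1* had 1237, 1255 and 1347 FPKM and then 417, 542 and 559.9 (−1.41 ± 0.09, adjusted p = 4.29e-09). For all 3 genes the libraries of both times were fully separated, and each had a log2 fold change beyond 1 with an adjusted p below 0.05, as 12% of the 13580 tested genes did.

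Smaller changes were measured for the other members. *Hba-a1*, the adult alpha-globin gene, rose from 442, 626 and 817 to 991, 1002 and 1302 FPKM (0.73 ± 0.17, adjusted p = 0.00188). *Hba-x*, the embryonic zeta-globin gene, fell from 1097, 1425 and 1637 to 978, 1129 and 1175 FPKM (−0.42 ± 0.11, adjusted p = 0.00473) with overlapping groups. *Klf1* fell from 2.88, 3.22 and 3.59 to 1.95, 1.96 and 2.44 FPKM (−0.67 ± 0.15, adjusted p = 0.00133), and its groups did not overlap.

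*Hbb-y* rose (0.19 ± 0.08, adjusted p = 0.0494) with overlapping groups, and *Slc4a1* did not pass (−0.17 ± 0.08, adjusted p = 0.103). In all, 7 of 8 members passed an adjusted p of 0.05, 4 higher and 3 lower, beside 59.3% of all tested genes, and the groups did not overlap for 5 members, beside 64.8%. The call of *Hbb-y* was lost when DMSO replicate 1 of 1 h (0.13, adjusted p = 0.171), replicate 2 of 1 h (0.16, adjusted p = 0.15) or replicate 3 of 24 h (0.09, adjusted p = 0.34) was left out, while *Slc4a1* passed without DMSO replicate 1 of 1 h (−0.27, adjusted p = 0.00244). DESeq2 did not pass *Hba-x* (adjusted p = 0.0556) or *Hbb-y* (adjusted p = 0.247), nor did limma on FPKM or a fit of all 30 libraries.

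Genes of the red cell membrane, heme synthesis and erythroid transcription moved in both directions in these libraries. In each list of this paragraph the share that passed lay below the 59.3% of all tested genes. Of 14 membrane genes 2 rose and 4 fell, with a median log2 fold change of −0.11 against 0.00 over all genes. *Tmod1*, which caps actin filaments of the membrane skeleton, rose (0.87 ± 0.22, adjusted p = 0.00368), and *Sptb* fell (−0.68 ± 0.10, adjusted p = 5.39e-05). Of 14 heme synthesis and iron supply genes 1 rose and 5 fell (median −0.11), the latter led by the heme enzyme gene *Cpox* (−0.54 ± 0.07, adjusted p = 1.25e-05) and the transferrin receptor gene *Tfrc* (−0.50 ± 0.05, adjusted p = 3.21e-07). Of 10 erythroid transcription factors *Hemgn* (−1.04 ± 0.16, adjusted p = 6.13e-05) and *Lmo2* (−0.80 ± 0.10, adjusted p = 7.78e-06) fell and *Bcl11a* rose (0.64 ± 0.04, adjusted p = 8.75e-09), with a median of −0.14. Of 9 other erythroid genes 3 fell (median −0.10), namely *Tspan33* (−0.48 ± 0.14, adjusted p = 0.00734), the erythropoietin receptor gene *Epor* (−0.43 ± 0.14, adjusted p = 0.0151) and *Prdx2* (−0.26 ± 0.05, adjusted p = 0.000238).

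Genes known as regulators of globin switching differed between both times. All 8 passed, 5 higher and 3 lower, with a median of 0.44 and the largest differences for *Nfix* (3.93 ± 0.11, adjusted p = 1.16e-12), *Lin28b* (−2.12 ± 0.07, adjusted p = 6.26e-12) and *Nfia* (1.85 ± 0.07, adjusted p = 4.55e-11). LIN28B is an RNA-binding protein of early development, and NFIA and NFIX are nuclear factor I proteins. These genes are also active outside blood, and their level in red cells was not measured. Macrophage markers passed higher in 11 of 12 cases and lower in 1 (median 1.23; *Aif1* at 2.11 ± 0.40, adjusted p = 0.000423), with a summed level of 29.3 to 36.1 CPM at 1 h and 67.9 to 76.1 CPM at 24 h. Megakaryocyte markers passed higher in 3 of 8 cases (median 0.58; sum 20.5 to 22.8 and 30.04 to 32.5 CPM), and endothelial markers lower in 7 of 12 (median −0.18; sum 512 to 534 and 457 to 475 CPM). Over all tested genes 59.3% passed, a larger share than among the megakaryocyte and endothelial markers. The part of these marker shifts in the globin values was not tested.

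In the C59 libraries the same interval gave falls in 4 members. *Hbb-bh1* had 1456, 1965 and 1996 FPKM at 1 h and 328, 352 and 402 at 24 h (−2.41 ± 0.11, adjusted p = 4.19e-10). *Hba-x* fell from 1516, 2086 and 2096 to 692, 889.6 and 1151 FPKM (−1.17 ± 0.15, adjusted p = 2.2e-05). *Klf1* fell from 2.83, 4.63 and 4.74 to 1.41, 1.80 and 1.88 FPKM (−1.30 ± 0.21, adjusted p = 0.000126). For these genes and for *Slc4a1*, which fell from 21.2, 28.9 and 31.4 to 15.5, 17.0 and 18.3 FPKM (−0.78 ± 0.11, adjusted p = 5.25e-05), no library of 24 h reached the range of 1 h.

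The adult beta-like globins rose in C59 limb buds too. *Hbb-bs* went from 28.5, 43.0 and 43.4 to 139, 211 and 235 FPKM (2.23 ± 0.18, adjusted p = 1.2e-07), and its groups were apart. *Hbb-bt* had 4.28, 5.56 and 5.87 FPKM and then 4.32, 15.1 and 15.4 (1.39 ± 0.20, adjusted p = 4.83e-05), with groups that overlapped in FPKM and not in CPM, and its call was lost in limma on log2(FPKM + 1) (0.85, adjusted p = 0.0728). *Hbb-y* (−0.13 ± 0.12, adjusted p = 0.371) and *Hba-a1* (0.07 ± 0.21, adjusted p = 0.796) did not pass, though *Hba-a1* passed without C59 24 h replicate 2 (0.34, adjusted p = 0.0481) and *Hbb-y* without C59 1 h replicate 2 (−0.27, adjusted p = 0.046). In all, 6 of 8 members passed, 2 higher and 4 lower, beside 54.1% of the 13510 tested genes, and 5 had a log2 fold change beyond 1 as well, beside 13.6%. The groups did not overlap in CPM for 6 members, beside 62.6%.

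Many other erythroid genes were lower at 24 h than at 1 h within the C59 libraries, in a comparison where 54.1% of all tested genes passed. Against DMSO, the membrane genes in C59 had a median difference of 0.43 at 1 h and −0.05 at 24 h. Of the membrane genes 10 fell and 1 rose (median −0.52), with *Sptb* at −1.64 ± 0.14 (adjusted p = 2.66e-07) and *Rhag*, the Rh-associated glycoprotein gene, at −1.11 ± 0.17 (adjusted p = 0.000102). Of the heme and iron genes 10 of 14 fell (median −0.35; *Cpox* −1.07 ± 0.08, adjusted p = 4.76e-08). Of the erythroid transcription factors 7 fell and 1 rose (median −0.73), led by *Hemgn* (−2.14 ± 0.13, adjusted p = 1.03e-08) and *Gfi1b* (−1.30 ± 0.38, adjusted p = 0.0104). Of 9 other erythroid genes 5 fell (median −0.23), a share near the 54.1% of all genes, with *Epor* at −0.87 ± 0.16 (adjusted p = 0.000427). All 8 switching regulators passed, with *Nfix* at 4.33 ± 0.13 (adjusted p = 7.06e-12). Macrophage markers passed higher in 11 of 12 cases (sum 26.9 to 33.1 CPM at 1 h and 78.3 to 86.8 CPM at 24 h) and megakaryocyte markers in none of 8 (median −0.29). Endothelial markers passed lower in 6 of 12 cases, a share below the 54.1% of all genes. The part of these markers in the globin values was not tested, nor was the difference between the courses in C59 and DMSO over the whole day.

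**Figure D2:**
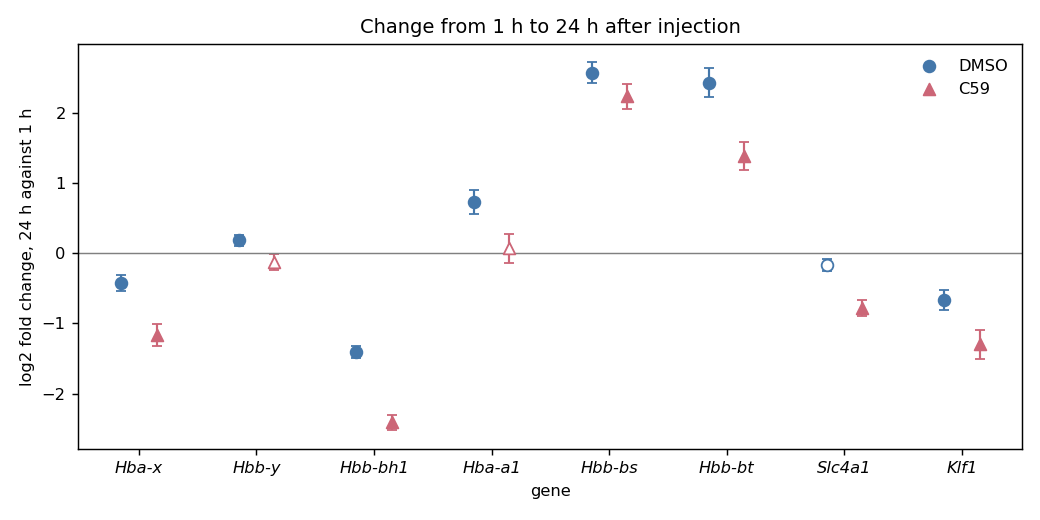
Log2 fold change of counts from 1 h to 24 h after injection for 8 genes, in DMSO (circles) and C59 (triangles). Bars are standard errors, and filled symbols passed an adjusted p of 0.05. *Hbb-bs* and *Hbb-bt* lie above 0 in both treatments, from 1.39 to 2.57, and *Hbb-bh1* lies at −1.41 in DMSO and −2.41 in C59.

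Shares of FPKM within a globin family compare its genes inside each library. Over the 5 times in order, the adult genes made up 30.8, 33.4, 37.0, 38.6 and 49.96% of the alpha-like FPKM in DMSO libraries (means of 3, with SDs of 1.42 to 3.74). Of the beta-like FPKM they made up 0.747, 1.49, 2.62, 2.49 and 5.05% (SDs of 0.132 to 0.678). The adult share was thus higher in the alpha-like than in the beta-like family in every group.

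Within the beta-like family the largest exchange was between the embryonic genes. In DMSO libraries the mean share of *Hbb-bh1* was 37.5, 31.5, 25.4, 22.5 and 15.8% in the order of time (SDs of 0.627 to 2.17). The share of *Hbb-y* was 61.8, 67.1, 72.0, 75.0 and 79.1% (SDs of 0.596 to 2.49). At each step the *Hbb-bh1* share of the 3 later libraries lay below that of the 3 earlier ones.

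In C59 libraries the mean *Hbb-bh1* share was 38.6, 29.4, 22.5, 16.6 and 11.1% in the same order (SDs of 0.296 to 1.83). At 6 h it ranged from 29.1 to 29.96% in C59 and from 30.9 to 32.2% in DMSO, and at 12 h from 21.2 to 24.6% and from 24.7 to 26.0%. The distance was wider at 18 h, with 16.0 to 17.4% in C59 and 21.2 to 23.6% in DMSO, than at 24 h, with 10.52 to 12.1% and 14.0 to 18.2%. From 6 h on every C59 library thus lay below every DMSO library of its time. At 1 h the C59 range of 38.42 to 38.96% lay just above the DMSO range of 36.55 to 38.35%. This 1 h separation held in FPKM only, and in counts per exon length the 1 h ranges overlapped. A share over chosen genes was given no test.

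The adult shares differed between treatments at some times. The adult alpha share in C59 was 33.2, 35.4, 41.3, 44.5 and 53.6% in the order of time. At 18 h its range in C59 was 43.3 to 46.2% against 34.5 to 41.7% in DMSO, and at the other times the ranges overlapped. The adult beta share was higher in the C59 libraries at 1 h, at 0.876 to 0.958% against 0.585 to 0.852%, and lower at 6 h, at 0.982 to 1.18% against 1.33 to 1.57%. In counts per exon length the 1 h ranges overlapped, with a mean of 0.745% in C59. At 24 h the ranges of 5.28 to 7.50% in C59 and 4.84 to 5.43% in DMSO overlapped.

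**Figure D3:**
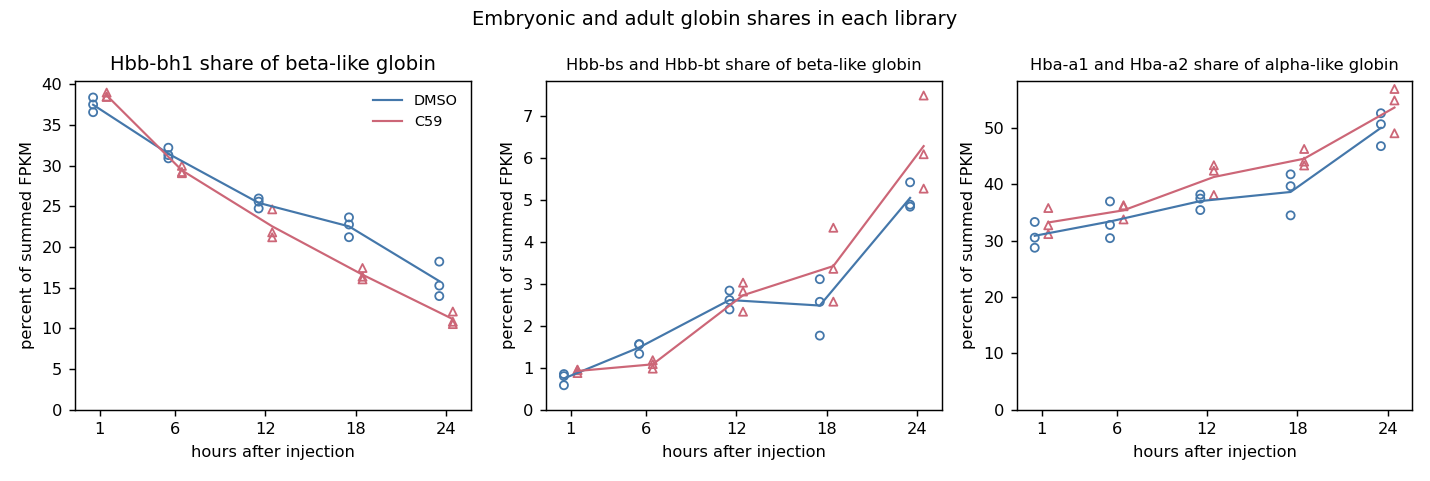
Percent of the summed FPKM of a globin family against hours after injection, for *Hbb-bh1* and for the adult genes of the beta-like and alpha-like families. Each circle is a DMSO library, each triangle a C59 library, and lines join group means. The *Hbb-bh1* share falls from 37.5 to 15.8% in DMSO and from 38.6 to 11.1% in C59.

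C59 was compared with DMSO at each time to see how the members differed between the treatments, whose vehicles differed as well. At 1 h all 8 tested members had a higher level in C59. *Hbb-bh1* had 1237, 1255 and 1347 FPKM in DMSO and 1456, 1965 and 1996 in C59 (0.53 ± 0.09, adjusted p = 0.00426), and *Hbb-bs* had 15.2, 21.5 and 26.6 against 28.5, 43.0 and 43.4 (0.87 ± 0.18, adjusted p = 0.0156), both without overlap. *Hbb-y* (0.50 ± 0.10, adjusted p = 0.0131) and *Slc4a1* (0.56 ± 0.12, adjusted p = 0.0199) rose too, with groups that overlapped in FPKM. These 4 members rose, beside 1.14% of the 13076 tested genes, and none had a log2 fold change beyond 1, which 0.283% of genes had with an adjusted p below 0.05.

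The median over the 8 members at 1 h was 0.51, against 0.00 over all genes, and 3 members did not overlap in CPM, beside 22% of genes. *Hba-a1* (0.64 ± 0.18, adjusted p = 0.0793), *Hba-x* (0.48 ± 0.13, adjusted p = 0.0654), *Klf1* (0.37 ± 0.18, adjusted p = 0.307) and *Hbb-bt* (0.34 ± 0.16, adjusted p = 0.305) did not pass. C59 replicate 2 had the lowest FPKM of its group for all 8 members, for example 2249 for *Hbb-y* against 3150 and 3093.

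A minority of the other blood genes rose in C59 at 1 h as well, and none fell. Of 14 membrane genes, all with a positive difference (median 0.43), 4 rose, including the blood group gene *Kel* (0.73 ± 0.15, adjusted p = 0.0198) and *Ank1*, which anchors band 3 to the skeleton (0.69 ± 0.13, adjusted p = 0.00821). The mitochondrial iron carrier gene *Slc25a37* (0.52 ± 0.10, adjusted p = 0.011) and *Cpox* (0.28 ± 0.07, adjusted p = 0.046) rose among 14 heme and iron genes (median 0.12). *Car2* (0.69 ± 0.11, adjusted p = 0.00429) and *Epor* (0.60 ± 0.13, adjusted p = 0.0193) rose among 9 other erythroid genes (median 0.42, 2 with a negative difference), and *Zfpm1*, a GATA cofactor (0.47 ± 0.07, adjusted p = 0.00149), among 10 transcription factors (median 0.33, 3 negative). The X-linked *Gata1* and *Alas2*, measured in FPKM alone, had 1.58 to 2.04 and 14.0 to 14.8 FPKM in DMSO and 1.95 to 2.704 and 16.5 to 24.4 in C59.

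Megakaryocyte markers moved with the erythroid genes at 1 h. *Pf4* (0.72 ± 0.12, adjusted p = 0.00426) and *Itga2b* (0.59 ± 0.12, adjusted p = 0.0189) rose among 8 tested markers (median 0.62), and the list summed to 20.5 to 22.8 CPM in DMSO and 31.4 to 36.0 CPM in C59, with *Gp1bb* at 0 in all 30 libraries. None of 12 endothelial markers (median −0.01; sum 512 to 534 and 511 to 532 CPM) and none of 11 macrophage markers (median −0.06; sum 29.3 to 36.1 and 26.9 to 33.1 CPM) passed. The part of blood content in the globin values was not tested.

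The 1 h calls depended on single libraries and on the tool. *Hbb-bh1* passed in all 6 fits that left out 1 library (adjusted p up to 0.0245). *Hbb-y* lost its call without DMSO replicate 1 (adjusted p = 0.0599), DMSO replicate 2 (0.0673), C59 replicate 1 (0.0731) or C59 replicate 3 (0.0663), and *Slc4a1* without the same 4 libraries (0.0741, 0.074, 0.104 and 0.0785). *Hbb-bs* lost it without DMSO replicate 2 (0.0588), C59 replicate 1 (0.0865) or C59 replicate 3 (0.0702). *Hba-x* passed without DMSO replicate 3 (0.62, adjusted p = 0.00631) or C59 replicate 2 (0.62, adjusted p = 0.0257), and *Hba-a1* without DMSO replicate 3 (0.89, adjusted p = 0.00354). DESeq2 passed 1 member, *Hbb-bh1*, while limma on FPKM and a fit of all 30 libraries passed none, and the 8 differences were positive in every fit run.

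At 6 h the passing differences had the opposite direction. *Hbb-bs* had 31.4, 32.5 and 33.9 FPKM in DMSO and 14.7, 20.3 and 21.9 in C59 (−0.79 ± 0.12, adjusted p = 0.000361), and *Hbb-bt* had 11.8, 11.9 and 12.1 against 8.11, 8.78 and 9.74 (−0.48 ± 0.11, adjusted p = 0.00904), both without overlap. *Hbb-bh1* had 858, 942 and 1040 FPKM in DMSO and 627, 781 and 866 in C59 (−0.34 ± 0.09, adjusted p = 0.0173), with groups that overlapped in FPKM and not in CPM. *Hba-x* fell as well (−0.23 ± 0.07, adjusted p = 0.0436). These 4 members fell, beside 11.4% of the 13100 tested genes, and none had a log2 fold change beyond 1, which 1.17% of genes had with an adjusted p below 0.05.

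*Slc4a1* (−0.24 ± 0.09, adjusted p = 0.0736), *Hbb-y* (−0.22 ± 0.09, adjusted p = 0.108), *Hba-a1* (−0.08 ± 0.07, adjusted p = 0.485) and *Klf1* (0.05 ± 0.16, adjusted p = 0.869) did not pass at 6 h. The median over the 8 members was −0.24, against 0.01 over all genes, and 3 members did not overlap in CPM, beside 36.8%. Of the heme and iron genes 3 fell, among them *Tfrc* (−0.40 ± 0.05, adjusted p = 5.98e-05) and *Slc25a37* (−0.39 ± 0.09, adjusted p = 0.00587), of the membrane genes *Sptb* (−0.36 ± 0.11, adjusted p = 0.028), and of the other erythroid genes *Bpgm*, which makes bisphosphoglycerate (−0.21 ± 0.06, adjusted p = 0.0193). The medians of these lists were −0.14, −0.16 and −0.11. A single gene among 14 membrane and 1 among 9 other erythroid genes is no larger a share than the 11.4% of all tested genes that fell. None of 10 erythroid transcription factors passed (median −0.12).

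Markers of other blood and vessel cells showed few calls at 6 h. None of 8 megakaryocyte markers passed (median 0.15; sum 27.1 to 37.8 CPM in DMSO and 29.5 to 33.6 in C59), 1 of 12 endothelial markers rose and 1 fell (median −0.03), and none of 12 macrophage markers passed (median 0.15). Of 8 forelimb mesenchyme markers 5 fell, with *Twist1* at −1.39 ± 0.04 (adjusted p = 5.63e-11), *Twist2* at −1.37 ± 0.15 (2.54e-05) and *Hoxa11* at −0.40 ± 0.06 (0.000372), and the list summed to 2042 to 2065 CPM in DMSO and 1516 to 1637 in C59. *Hbb-bs* and *Hbb-bt* passed whichever library was left out. *Hbb-bh1* lost its call without C59 replicate 1 (−0.21, adjusted p = 0.0699) or C59 replicate 3 (−0.35, adjusted p = 0.0618). *Hba-x* lost it without DMSO replicate 1 (adjusted p = 0.0531), DMSO replicate 2 (0.0744), C59 replicate 1 (−0.13, adjusted p = 0.215) or C59 replicate 3 (0.135). *Slc4a1* passed without DMSO replicate 3 (−0.35, adjusted p = 0.00478) and *Hbb-y* without C59 replicate 2 (−0.32, adjusted p = 0.0324). *Hba-x* and *Hbb-bh1* lost their calls under limma on FPKM with a pseudocount of 1 (adjusted p = 0.226 and 0.118), *Hbb-bh1* in DESeq2 (0.1) and *Hba-x* with upper-quartile scaling (0.0641). With all 30 libraries in 1 fit no member passed, and *Hbb-bs* had an adjusted p of 0.0512.

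The turn between 1 h and 6 h was tested as the change of the C59 effect over the 12 libraries of both times. *Hbb-bs* gave the largest change among the members (−1.65 ± 0.25, adjusted p = 0.000291), from a difference of 0.87 at 1 h to −0.79 at 6 h. *Hbb-bh1* (−0.86 ± 0.15, adjusted p = 0.000816), *Hbb-bt* (−0.81 ± 0.20, adjusted p = 0.0111), *Slc4a1* (−0.80 ± 0.18, adjusted p = 0.00669), *Hbb-y* (−0.71 ± 0.16, adjusted p = 0.00684) and *Hba-x* (−0.70 ± 0.18, adjusted p = 0.0155) passed as well. The effect thus fell in 6 members, beside 7.65% of the 13397 tested genes, and *Hbb-bs* alone among them changed by more than 1, as 1.34% of genes did with an adjusted p below 0.05. *Hba-a1* (−0.71 ± 0.24, adjusted p = 0.0623) and *Klf1* (−0.32 ± 0.25, adjusted p = 0.449) did not pass. Of these calls, leaving out 1 library ended that of *Hba-x*, without C59 6 h replicate 1 (−0.61, adjusted p = 0.0514), and *Hba-a1* passed without DMSO 1 h replicate 3 (−0.97, adjusted p = 0.0053) or C59 1 h replicate 2 (−0.87, adjusted p = 0.0274). Limma on log2(FPKM + 1) passed 4 members, without *Hba-x* (adjusted p = 0.075) and *Hbb-y* (0.0891). With all 30 libraries in 1 fit 3 members passed, and *Hba-x* (adjusted p = 0.157), *Hbb-y* (0.0621) and *Hbb-bt* (0.206) lost their calls.

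Most other erythroid genes had a negative change as well. Of 14 membrane genes 4 passed lower and none higher (median −0.61), led by *Tmod1* (−1.15 ± 0.36, adjusted p = 0.0432), *Sptb* (−0.98 ± 0.18, adjusted p = 0.00143) and *Kel* (−0.96 ± 0.26, adjusted p = 0.0216). Of the heme and iron genes 6 of 14 passed lower (median −0.28; *Slc25a37* −0.90 ± 0.15, adjusted p = 0.00075), and of the other erythroid genes 4 of 9 (median −0.53; *Car2* −0.99 ± 0.19, adjusted p = 0.0022), where 2 had a positive change. Of 10 erythroid transcription factors 3 passed lower, with *Hemgn* (−0.75 ± 0.21, adjusted p = 0.028) and *Zfpm1* (−0.63 ± 0.10, adjusted p = 0.000371) changed most, and *Bcl11a* passed higher (0.20 ± 0.07, adjusted p = 0.0475; median −0.40). Of 8 megakaryocyte markers 2 passed lower (median −0.57), and their part was not tested.

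Between 6 h and 12 h the effect turned back for *Hbb-bs* (1.21 ± 0.26, adjusted p = 0.0042), also in all 12 fits that left out 1 library. It was the single member that passed, beside 18.1% of the 13565 tested genes, and this test shares the 6 h libraries with the preceding one. Without DMSO 12 h replicate 3, 7 of 8 members passed, among them *Hbb-y* (0.77, adjusted p = 0.0116), and without C59 12 h replicate 1, 5 did, among them *Hbb-bt* (0.78, adjusted p = 0.00829). Markers of other cells were tested in the same interval, where 18.1% of all genes passed. The passing shares of megakaryocyte and macrophage markers lay below that value. Of 12 endothelial markers 4 passed higher (median 0.28; *Cdh5* 0.42 ± 0.07, adjusted p = 0.000915), of 8 megakaryocyte markers *Itga2b* (0.81 ± 0.20, adjusted p = 0.0102; median 0.49) and of 12 macrophage markers *Adgre1* (1.58 ± 0.37, adjusted p = 0.0078; median 0.58), and their part in the change of *Hbb-bs* was not tested. No member passed for the change from 12 h to 18 h or from 18 h to 24 h, beside 8.49 and 6.96% of genes. At an unadjusted p of 0.05 the counts were 1 and 2, and DESeq2 passed none. *Hbb-bt* passed for 12 h to 18 h without C59 18 h replicate 3 (−0.96, adjusted p = 0.0298).

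At 12 h, when 47.5% of the 13324 tested genes differed between C59 and DMSO, no member passed. The largest differences were those of *Hba-a1* (0.44 ± 0.17, adjusted p = 0.0535), with 829, 854 and 1159 FPKM in DMSO and 1056, 1252 and 1741 in C59, *Hbb-bs* (0.42 ± 0.18, adjusted p = 0.0817) and *Hbb-y* (0.36 ± 0.15, adjusted p = 0.0675). The groups overlapped for every tested member. At an unadjusted p of 0.05 the count was 3, all higher. DESeq2, limma on FPKM and a fit of all 30 libraries passed none, whereas upper-quartile scaling passed 3, *Hba-a1* (0.52, adjusted p = 0.0251), *Hbb-y* (0.44, adjusted p = 0.0279) and *Hbb-bs* (0.51, adjusted p = 0.0412), and a fit without the filter on low counts passed *Hba-a1* (adjusted p = 0.0276) and *Hbb-y* (0.037). With the replicate number as a block 6 members passed, led by *Hbb-y* (0.36, adjusted p = 0.000174), *Hba-a1* (0.43, adjusted p = 0.000253) and *Hbb-bs* (0.41, adjusted p = 0.000391). Without DMSO replicate 3 the differences of *Hba-a1* (0.61, adjusted p = 0.0162), *Hbb-bs* (0.62, adjusted p = 0.0255), *Hbb-y* (0.54, adjusted p = 0.011) and *Slc4a1* (0.43, adjusted p = 0.0224) passed, and without C59 replicate 1 those of *Hba-a1* (0.60, adjusted p = 0.00967), *Hbb-bs* (0.61, adjusted p = 0.0103) and *Hbb-y* (0.47, adjusted p = 0.0286).

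Of the other blood genes 6 of 14 membrane genes, 5 of 10 transcription factors, 5 of 14 heme and iron genes and 1 of 9 other erythroid genes passed at 12 h, beside the 47.5% of all tested genes. Of the membrane genes 5 rose and 1 fell (median 0.27), with *Ermap* (0.59 ± 0.18, adjusted p = 0.0181), the Rh gene *Rhd* (0.56 ± 0.15, adjusted p = 0.0111) and *Kel* (0.55 ± 0.20, adjusted p = 0.0441) leading. Of the erythroid transcription factors 2 rose and 3 fell, with *Nfe2*, also a factor of megakaryocytes, higher (0.82 ± 0.13, adjusted p = 0.00057) and *Lmo2* (−0.94 ± 0.09, adjusted p = 1.69e-05) and *E2f2* (−0.57 ± 0.09, adjusted p = 0.000347) lower. Of the heme and iron genes *Alad* (−0.60 ± 0.06, adjusted p = 1.61e-05) led 3 that fell, and *Blvrb* (0.32 ± 0.09, adjusted p = 0.0145) and *Fech* (0.26 ± 0.08, adjusted p = 0.0246) rose. *Bnip3l* rose among the other erythroid genes (0.36 ± 0.04, adjusted p = 5.92e-05). *Lmo2*, *E2f2* and *Alad* are not restricted to blood.

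Of the switching regulators 3 rose and 3 fell at 12 h, led by *Sox6*, also a cartilage factor (1.56 ± 0.10, adjusted p = 1.28e-06), *Lin28b* (−0.89 ± 0.07, adjusted p = 4.7e-06) and *Nfix* (0.57 ± 0.13, adjusted p = 0.00519). Megakaryocyte markers rose in 3 of 8 cases, with *Tubb1* at 0.91 ± 0.22 (adjusted p = 0.00661), and summed to 25.0 to 29.3 CPM in DMSO and 36.1 to 45.8 in C59. Macrophage markers rose in 7 of 12 cases (median 0.73; *Adgre1* 1.33 ± 0.24, adjusted p = 0.00108) and summed to 40.6 to 45.8 and 67.4 to 70.7 CPM. Endothelial markers rose in 5 of 12 cases (median 0.23; *Pecam1* 0.42 ± 0.07, adjusted p = 0.000406) and summed to 435 to 482 and 536 to 597 CPM. Over all tested genes 47.5% passed at 12 h, a larger share than among the megakaryocyte and endothelial markers. The part of these marker differences in the members' values was not tested.

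At 18 h no member passed, beside 7.08% of the 13413 tested genes, and the adult beta-like genes differed in opposite directions. *Hbb-bs* had 39.3, 60.3 and 79.8 FPKM in DMSO and 95.7, 107 and 123 in C59 (0.83 ± 0.23, adjusted p = 0.064), and *Hbb-bt* had 16.9, 20.1 and 24.2 against 7.97, 12.3 and 17.1 (−0.64 ± 0.18, adjusted p = 0.0686). In CPM the groups did not overlap for 4 members, *Hbb-bs*, *Hbb-y* and *Slc4a1* higher and *Hbb-bt* lower, beside 34.2% of all tested genes. At an unadjusted p of 0.05 the count was 4, and DESeq2 passed 2, *Hbb-bs* (adjusted p = 0.00496) and *Hbb-bt* (adjusted p = 0.0157). Over the alternatives that kept all libraries of the comparison and counted the gene on its own, the adjusted p of *Hbb-bs* ran from 0.00496 to 0.0817, and it passed with upper-quartile scaling, no filter, limma on FPKM and all 30 libraries in 1 fit as well as with DESeq2. That of *Hbb-bt* ran from 0.0157 to 0.109.

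C59 replicate 3 had the highest FPKM of its group at 18 h for 7 of 8 members, for example 3917 for *Hbb-y* against 2399 and 2544. Without it, *Hbb-bs* (0.86, adjusted p = 0.046), *Hbb-bt* (−0.84, adjusted p = 0.0073) and *Hbb-bh1* (−0.45, adjusted p = 0.00586) passed. No membrane, heme and iron or other erythroid gene passed at 18 h, with medians of 0.27, 0.09 and 0.28, and of 10 erythroid transcription factors *Lmo2* fell (−0.72 ± 0.14, adjusted p = 0.0199; median 0.03). *Itga2b* rose among 8 megakaryocyte markers (0.65 ± 0.15, adjusted p = 0.0355; sum 25.6 to 27.5 CPM in DMSO and 29.0 to 44.7 in C59), and 3 of 12 macrophage markers rose (median 0.49). Their part in the members' values was not tested.

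At 24 h 1 member passed, beside 6.44% of the 13675 tested genes. *Hbb-bh1* fell from 417, 542 and 559.9 FPKM in DMSO to 328, 352 and 402 in C59 (−0.49 ± 0.11, adjusted p = 0.0205), with groups that did not overlap, as for 27.7% of genes. The call was lost without DMSO replicate 2 (−0.43, adjusted p = 0.0804), DMSO replicate 3 (−0.40, adjusted p = 0.0944) or C59 replicate 2 (−0.40, adjusted p = 0.0646), and also when FPKM were tested by limma with a pseudocount of 1 (0.0632) or with all 30 libraries in 1 fit (0.0545). *Hbb-y*, the other embryonic beta-like gene (0.17 ± 0.10, adjusted p = 0.349), and *Hba-x* (−0.28 ± 0.14, adjusted p = 0.282) did not pass. *Hbb-bs* (0.52 ± 0.15, adjusted p = 0.0658) and *Hbb-bt* (−0.71 ± 0.23, adjusted p = 0.0827) again differed in opposite directions without passing. Without the filter on low counts both passed (adjusted p = 0.0187 and 0.0259), *Hbb-bt* passed with all 30 libraries in 1 fit (adjusted p = 0.0495), and limma on log2(FPKM + 0.1) gave *Hbb-bt* a difference of −1.34 (adjusted p = 0.139).

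*Hba-a1* (−0.04 ± 0.21, adjusted p = 0.944), *Slc4a1* (−0.06 ± 0.08, adjusted p = 0.683) and *Klf1* (−0.27 ± 0.19, adjusted p = 0.423) completed the list at 24 h. C59 replicate 2 had the lowest FPKM of its group for all 8 members, with 665 for *Hba-a1* against 1396 and 1172, and without it *Hbb-bs* passed (0.72, adjusted p = 0.00225). *Hba-x* passed without C59 replicate 1 (−0.49, adjusted p = 0.0217) and *Hbb-bt* without DMSO replicate 2 (−0.95, adjusted p = 0.0183). No membrane, heme and iron or other erythroid gene passed, while *Hemgn* fell (−0.71 ± 0.18, adjusted p = 0.0392). Megakaryocyte markers summed to 30.04 to 32.5 CPM in DMSO and 24.9 to 32.9 in C59, and endothelial markers, of which *Kdr* fell (−0.26 ± 0.07, adjusted p = 0.0342), to 457 to 475 and 400.2 to 444 CPM. Of 12 macrophage markers *C1qa* (0.65 ± 0.13, adjusted p = 0.0102) and *Csf1r* (0.43 ± 0.10, adjusted p = 0.0312) rose, and the list summed to 67.9 to 76.1 CPM in DMSO and 78.3 to 86.8 in C59. Their part in the fall of *Hbb-bh1* was not tested.

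**Figure D4:**
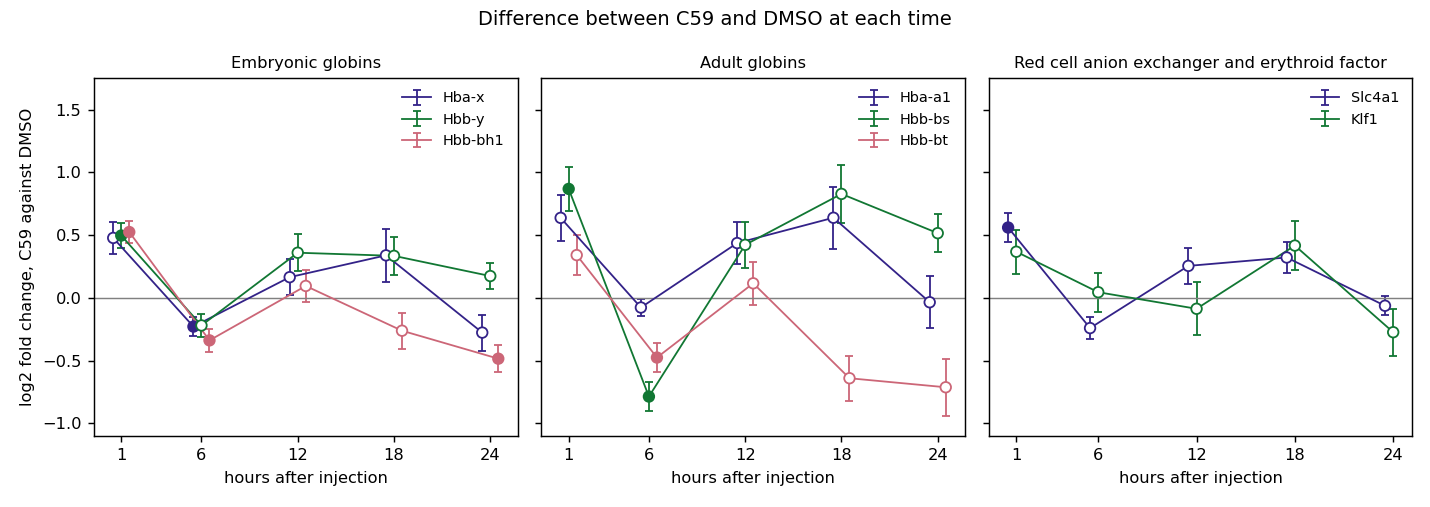
Log2 fold change of counts between C59 and DMSO against hours after injection, for the embryonic globins, the adult globins, and *Slc4a1* with *Klf1*. Bars are standard errors, filled circles passed an adjusted p of 0.05, and points are drawn slightly apart. All members lie above 0 at 1 h and most below it at 6 h, for *Hbb-bs* at 0.87 and −0.79, and *Hbb-bs* and *Hbb-bt* part at 18 h, at 0.83 and −0.64.

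The opposite signs of *Hbb-bs* and *Hbb-bt* at the late times can be read as their ratio. *Hbb-bt* took 27.0 to 37.3% of the counts of both genes in DMSO at 18 h and 9.37 to 17.1% in C59, and 13.7 to 24.8% against 9.78 to 10.4% at 24 h, so the treatments were separated at both times. At 1 h the ranges were 19.9 to 27.8% in DMSO and 15.8 to 17.6% in C59, also apart, as they were at 12 h with 24.0 to 29.3% and 21.0 to 23.6%, and at 6 h they overlapped at 28.7 to 31.6% and 31.1 to 40.5%. Summed, both genes differed between C59 and DMSO by 0.77 (adjusted p = 0.0181) at 1 h, −0.69 (adjusted p = 0.000143) at 6 h, 0.52 (adjusted p = 0.134) at 18 h and 0.33 (adjusted p = 0.217) at 24 h. Because the coding sequences differ at a single base, the division between both genes is less certain than their sum. The beta-globin haplotype of these animals, which decides which of the adult beta-like genes they carry, is not given in the sources used here.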

How the data were processed

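PolyA RNA of 30 mouse forelimb bud libraries was sequenced. Per the labels and the study's methods, the authors trimmed reads with cutadapt 1.16, mapped them with STAR 2.7.0e to mm10 and deposited gene counts as STAR gave them, not normalized. FPKM values were computed by the authors with Cufflinks 2.2.1 with multi-read correction, which can move fragments between paralogs. deepTools 3.5.5 is also named. Whether counting used strand is not given in the sources used here. The number of unused sample columns was 0.

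Counts of protein-coding autosomal genes (GENCODE M21, joined by gene identifier) were tested with edgeR 4.0.16 in R 4.3.3. Each comparison was fitted on its own libraries by quasi-likelihood, two-sided, with TMM scaling, no covariates and filterByExpr (minimum count 10, minimum total 15). Genes with a p under 0.05 after Benjamini-Hochberg adjustment passed, and those that also changed by more than 1 on the log2 scale were counted apart. FPKM served for levels and shares. Alternatives were DESeq2 1.42.0, limma 3.58.1 on log2(FPKM + 1) or log2(FPKM + 0.1), upper-quartile scaling, scaling without globins, no filter, all 30 libraries, summed paralogs, exon-length shares, a block for replicate number and the omission of single libraries. The edgeR script was tested on simulated data. In 30 pairs of replicates the chi-square per degree of freedom between counts ran from 3.31 to 42.23, so none was counted as a duplicate. In some groups 1 library had higher values in its pairs than the remaining pair had. These were DMSO 1 h replicate 1 (20.75 and 22.83 against 5.357) and DMSO 6 h replicate 1 (41.75 and 35.41 against 5.738). The same held for DMSO 18 h replicate 1 (35.83 and 28.82 against 3.94). It also held for C59 18 h replicate 3 (38.9 and 32.91 against 4.099) and C59 24 h replicate 2 (42.23 and 31.58 against 11.73). Totals ran from 18188636 to 38974885 counts, and *Klf1*, with 3813 counts in all, had the fewest of the tested members. Its SE was not always the largest. For C59 against DMSO at 24 h it was 0.19, against 0.23 for *Hbb-bt* and 0.21 for *Hba-a1*.

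The 9 members were named throughout, from each list at most the 3 passing genes with the largest difference, *Axin2*, and the 5 genes closest to each of 3 profiles. A few genes that this rule selects are not reported here. Members and lists were chosen with earlier results of these data known. *Hbb-b1*, *Hbb-b2* and *Ahsp* matched no symbol. The lists of other globins and of hindlimb genes served as checks, with *Cygb*, *Mb*, *Pitx1* and *Tbx4* their passing genes. *Gata1* and *Alas2* were in the FPKM table alone. Sequences came from RefSeq (GRCm38.p6) and GENCODE M21.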

Additional observations from a re-analysis of the deposited data

Results flagged for a closer look

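The C59 effect differed between neighbouring times for 7 gene and interval pairs, by the interaction contrast of edgeR over 12 libraries each. From 1 h to 6 h the log2 fold change of C59 against DMSO changed by −1.65 for *Hbb-bs* (adjusted p = 0.000291), −0.86 for *Hbb-bh1* (adjusted p = 0.000816), −0.81 for *Hbb-bt* (adjusted p = 0.0111), −0.80 for *Slc4a1* (adjusted p = 0.00669), −0.71 for *Hbb-y* (adjusted p = 0.00684) and −0.70 for *Hba-x* (adjusted p = 0.0155). With all 30 libraries in 1 fit the calls of *Hbb-y* (adjusted p = 0.0621), *Hba-x* (0.157) and *Hbb-bt* (0.206) were lost, and in limma on log2(FPKM + 1) those of *Hbb-y* (0.0891) and *Hba-x* (0.075). From 6 h to 12 h it changed by 1.21 for *Hbb-bs* (adjusted p = 0.0042). The groups of 3 libraries were too small for a test of single outlying libraries.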

How the results depend on the processing

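Of the gene values recomputed under another setting, 1320 kept their direction and side of the threshold, 77 came to pass, 69 ceased to pass and 35 changed sign, none of the last with an adjusted p below 0.05. Of the sign changes 33 came from leaving out 1 library and 2 from limma, for *Klf1* at 12 h (0.004 and 0.012 with pseudocounts of 1 and 0.1). The causes were not tested.

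Leaving out 1 library gave these ranges where a sign changed. For C59 against DMSO they were −0.006 to 0.157 for *Klf1* at 6 h, and at 12 h −0.005 to 0.32 for *Hba-x*, −0.035 to 0.238 for *Hbb-bh1*, −0.014 to 0.299 for *Hbb-bt* and −0.292 to 0.197 for *Klf1*. At 24 h they were −0.261 to 0.236 for *Hba-a1* and −0.128 to 0.015 for *Slc4a1*, and from 1 h to 24 h in C59 −0.149 to 0.336 for *Hba-a1*. For the change of the C59 effect they were −0.319 to 0.167 for *Klf1* (6 h to 12 h), −0.139 to 0.361 for *Hba-x*, −0.231 to 0.155 for *Hbb-y*, −0.052 to 0.429 for *Hba-a1* and −0.105 to 0.219 for *Slc4a1* (12 h to 18 h), and −0.272 to 0.037 for *Hbb-y* and −0.311 to 0.165 for *Hbb-bt* (18 h to 24 h).

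With no minimum fold change, the members counted as changed were 4 at 1 h, 4 at 6 h, 1 at 24 h, 7 over the day in DMSO and 6 for the change from 1 h to 6 h, in place of 0, 0, 0, 3 and 1, by construction of the rule. Limma on log2(FPKM + 1) gave 3 over the day in C59, in place of 5. Leaving out 1 library at 1 h gave 0 to 1, with *Hbb-bs* called without DMSO replicate 3 (1.106) or C59 replicate 2 (1.04). Members that passed without the minimum at 1 h numbered 4 in edgeR, 1 in DESeq2, 0 in limma and 1 to 6 when a library was left out, and at 6 h 4, 3, 2 and 2 to 5.

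Adult shares from counts per exon length moved by more than the SD for the alpha-like family in C59 at 6 h (37.89%), DMSO at 12 h (39.47%) and C59 at 18 h (46.61%), and for the beta-like family in C59 at 1, 6, 12 and 24 h (0.745, 0.9308, 2.221 and 4.713%) and in DMSO at 6, 12 and 24 h (1.242, 2.177 and 4.082%).

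Same-numbered libraries had deviations correlated by −0.133 to 0.103, and by 0.019 to 0.103 for C59 against DMSO at 12 h. Replicate numbers were therefore not used as pairs in the main fits, though groups of 3 libraries cannot exclude a pairing. With the replicate number as a block, 5, 4, 6, 2 and 2 members passed at the 5 times, in place of 4, 4, 0, 0 and 1, and 8 and 6 over the day in DMSO and C59, in place of 7 and 6. Groups of 3 libraries limit every comparison.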
